A study of Mus musculus with 1 sample.

Results

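The stromal interstitial cells described here were 175 of the 970 cell barcodes of one single-cell RNA sequencing library from the juvenile mouse testis. The members were chosen by raw counts of marker genes. A barcode entered the somatic cells when it had at least 500 genes, under 10% of its unique molecular identifiers (UMIs, each standing for 1 captured RNA molecule) from mitochondrial genes, and fewer than 4 UMIs of the germ cell genes Dazl, Ddx4, Mael, Zbtb16 and Sohlh1 per 10000. Of 4 sums of raw UMIs, the sum of Dcn, Col1a1 and Col3a1, which encode decorin and the fibrillar collagens I and III, then had to be at least 5 and larger than the sums of Sertoli cell genes (Clu, Inha, Defb19 and Rhox8), smooth muscle genes (Acta2, Myl9 and Tagln) and leukocyte genes (Lyz2, C1qa and Fcer1g). The same rule gave 263 cells to the Sertoli class, 106 to the peritubular myoid class and 43 to the leukocyte class. The stromal cells were thus 29.8% of the 587 assigned somatic cells (exact binomial 95% interval 26.1 to 33.7%), a share that follows the cell mixture loaded and not the tissue. With a mitochondrial limit of 5% in place of 10%, this share was 46.8%. A further 10 barcodes stayed unassigned, 327 were germ cells and 46 were not kept.

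The library was made on the Chromium platform from wild-type (Zscan2+/+) C57BL/6 pups at postnatal day 8. Testis cells selected with magnetic beads for the surface protein THY1, which enriches undifferentiated spermatogonia, were pooled from 3 mice and mixed with unselected testis cells. The Zscan2-/- library was not analysed here. There was 1 library, so no value below has a replicate, no test between conditions was possible, and all intervals cover counting error only.

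The interstitium lies between the seminiferous tubules and holds fibroblast-like stromal cells, vessels, macrophages and Leydig cells, which make testosterone. In rodents the Leydig cells of the fetus decline after birth, and adult Leydig cells later arise from interstitial mesenchymal progenitors that carry PDGFRA and lack steroidogenic enzymes. Stromal and peritubular cells also lay down extracellular matrix and release factors that act on neighbouring cells.

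The stromal cells held 1521677 UMIs in all, with a median of 8349 per cell (range 2878 to 16369) and a median of 2511 genes. The median was 8404 UMIs in the Sertoli class, 7327.5 in the myoid class, 12321 in leukocytes and 18213 in germ cells. Mitochondrial transcripts were 3.06% of the stromal UMIs and 6.11% of those of the Sertoli class. The stromal marker sum had a median of 50 UMIs and reached 327. Just inside the threshold, the lowest sums were 6, 7 and 8, and 4 cells lay under 10. Just outside it, the highest stromal sum of an unassigned barcode below 5 was 3, and 1 barcode was unassigned because of a tie at 7. The class was therefore seldom decided near its lower limit, but the border with the myoid class was less sharp. A second sum reached 5 in 74 stromal cells, in 56 of them the smooth muscle sum and in 31 the Sertoli sum, and in 16 cells the first sum was less than 2 times the second. Conversely, 91 of the 106 myoid cells had a stromal sum of at least 5. Over all stromal cells, the smooth muscle sum came mostly from Myl9, with 551 UMIs against 166 of Acta2 and 14 of Tagln. Their Sertoli sum came mostly from Defb19, with 367 UMIs against 42 of Clu, 39 of Inha and 38 of Rhox8.

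The 3 rule genes are given only to show the size of the selection. Dcn was at 4043 summed UMIs per 1000000 UMIs of the class (CPM) in stromal cells, against 17.9 in the Sertoli class, 279 in the myoid class and 22.0 in germ cells. Col1a1 was at 1579 CPM and Col3a1 at 1869 CPM, against 657 and 492 in the myoid class.

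The other markers that go with the label, Dlk1, Meg3 and Pdgfra, were each higher in stromal cells than in every other somatic class. Dlk1, which encodes a membrane protein of the Delta-like family known from mesenchymal progenitors, had a lowest, median and highest value of 0, 41 and 257 UMIs per stromal cell and was at 0 in 6 cells. Its level was 5821 CPM, against 33.6 in the Sertoli class, 93.3 in the myoid class and 27.5 in leukocytes. The ratio over the other somatic cells was 128 (log2 7.0, 95% interval 6.78 to 7.22). Dlk1 was thus close to a marker of the class, although germ cells also held 107 CPM of it. A Dlk1 UMI was found in 96.6% of stromal cells and 65.1% of germ cells, and in 93.2% and 33.9% once each cell was thinned to 5000 UMIs.

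Meg3, a long noncoding RNA, had 1 to 204 UMIs per stromal cell with a median of 55, so no stromal cell was without it. Its level was 7272 CPM in stromal cells and 888 CPM in the myoid class, and the ratio over all other somatic cells was 29.4 (log2 4.88, 4.78 to 4.98). The Sertoli class held 163 Meg3 UMIs in 6 cells with steroidogenic transcripts, described further on, and 39 in its other 257 cells. Pdgfra, the receptor for platelet-derived growth factor that marks interstitial progenitors, had a median of 3 UMIs and a maximum of 10. It stood at 365 CPM, against 2.91 in the Sertoli class and 221 in the myoid class, with a log2 ratio over the other somatic cells of 2.87 (2.63 to 3.12). Meg3 and Dlk1 therefore set stromal cells apart from myoid cells, while Pdgfra was shared with them at a ratio of 1.66 (log2 0.73, 0.48 to 0.98). The size of these ratios depended on which cells were kept: without any cell in which a second sum reached 5, the log2 ratio over the other somatic cells was 8.27 for Meg3, 7.98 for Dlk1 and 5.49 for Pdgfra. That setting also dropped cells of the other classes: 91 of the 106 myoid cells had a stromal sum of at least 5. With a mitochondrial limit of 5% the ratios were lower, at 4.03, 6.54 and 1.77.

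**Figure D1:**
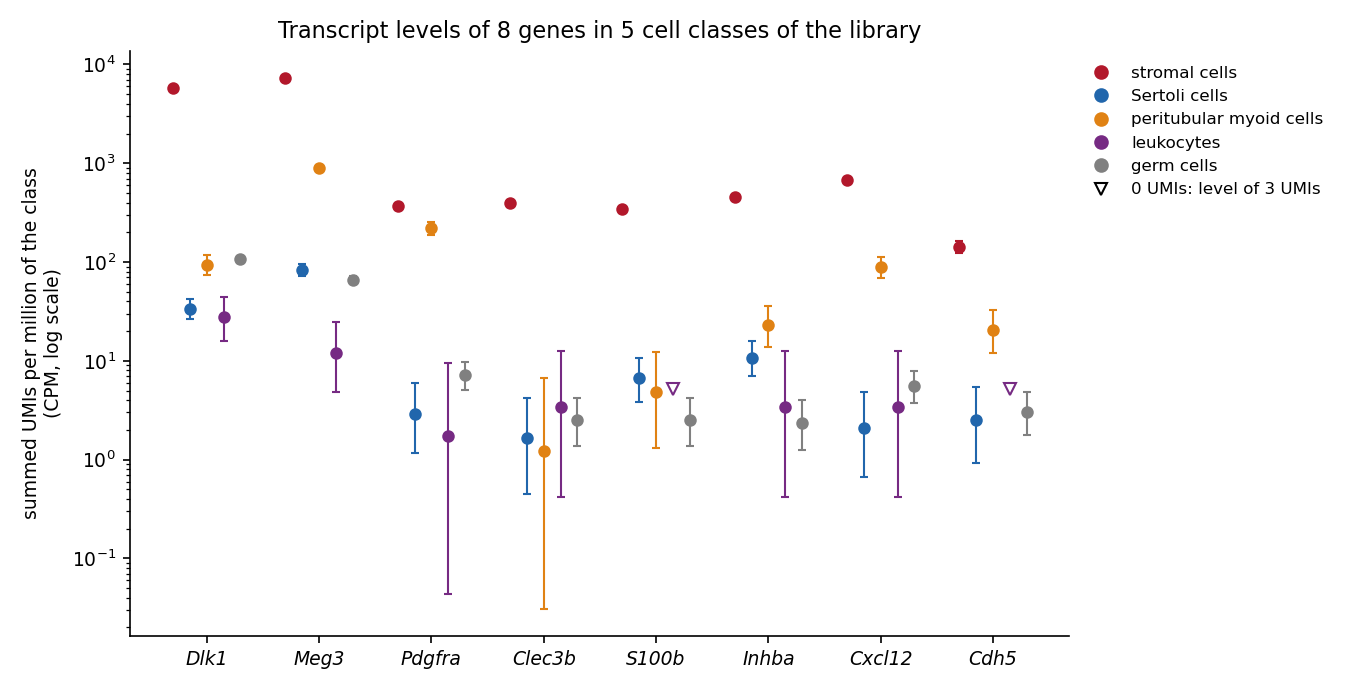
Summed UMIs per 1000000 (CPM, log scale) of 8 genes in stromal cells, the 3 other somatic classes and germ cells. Points are class levels, bars exact Poisson 95% intervals, and open triangles the level of 3 UMIs where none was counted; Dlk1 and Meg3 sit at 5821 and 7272 CPM in stromal cells, and Pdgfra is the gene with the smallest gap to myoid cells.

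Across all genes, 6188 had at least 100 UMIs in the assigned somatic cells. Of these, 436 (7.05%) were at least 2-fold higher in stromal cells than in the pooled other somatic cells and 1243 (20.1%) at least 2-fold lower, with a median log2 ratio of -0.31. The pool was mostly Sertoli cells, so the myoid class was also used alone, as the somatic class with the nearest marker sums. Against it 2910 genes could be compared, of which 148 (5.09%) were at least 2-fold higher and 168 (5.77%) at least 2-fold lower, with a median log2 ratio of 0.04. Of the 436 higher genes, 381 could be compared with the myoid class and 115 were at least 2-fold higher there too. Cells were assigned from the same counts, so these numbers describe the classes and test nothing. With a mitochondrial limit of 5% in place of 10%, the counts were 251 higher and 457 lower. That limit left fewer other somatic cells, so fewer than the 6188 genes reached 100 UMIs and these counts have another base.

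The 25 genes with the largest ratios, from 19.4 to 214, were all at least 2-fold above the myoid class as well. Clec3b, which encodes the plasminogen-binding protein tetranectin, led them. It was at 393 CPM in stromal cells against 1.66 in the Sertoli class and 1.21 in the myoid class. Dpt, the gene of the matrix protein dermatopontin, was at 139 CPM against 1.25 in the Sertoli class and 1.21 in the myoid class, with 0 UMIs in leukocytes, which allows up to 5.16 CPM there. Both genes are commonly seen in fibroblasts of other organs. Clec3b was nonetheless found in only 53.7% of stromal cells, and Dpt in 40.6%, so their high ratios came with an uneven spread over the cells.

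S100b, which encodes a calcium-binding protein best known from glia, was at 340 CPM against 6.64 in the Sertoli class and 4.85 in the myoid class, and 84.6% of stromal cells had a UMI of it (0 to 21 per cell). Only 3.67% of germ cells did, although these were deeper. Other Schwann cell genes did not go with it: Sox10 and Erbb3 had 0 UMIs in the stromal cells. Penk, the proenkephalin gene, was at 412 CPM against 38.8 in the myoid class. S100b and Penk were thus among the leading genes while Sox10 and Erbb3 were not detected.

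Several leading genes encode regulators and surface proteins. Osr1, a zinc finger transcription factor of embryonic mesenchyme, was at 246 CPM against 24.2 in the myoid class. Cd34, a sialomucin found on many fibroblasts and on endothelium, was at 382 CPM against 65.4, and Cd248, the endosialin gene, at 197 CPM against 20.6. Nrk, which encodes a Ste20-type kinase, was at 705 CPM against 131 and had a UMI in 97.7% of stromal cells. In contrast to Clec3b and Dpt, Nrk was therefore spread over nearly the whole class.

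At the other end, all but Spp1 of the 15 named genes with the smallest ratios, from 0.00483 to 0.0128, were highest in the Sertoli class. Spp1, the osteopontin gene, was at 260 CPM in leukocytes against 202 in the Sertoli class. Scx and Hsd17b1 had 1 UMI each in all stromal cells, against 213 and 189 CPM in the Sertoli class. Etd stood at 3.29 CPM against 986. Scx is a bHLH transcription factor and Hsd17b1 an enzyme of oestrogen metabolism. Genes at either end of the ratios were named only if at least 25% of the cells on their higher side held a UMI, which leaves out genes of small classes such as the leukocytes.

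Matrix genes made up the broadest group on the stromal side. Of 20 genes of collagens and collagen processing, 15 could be compared and 11 of these were at least 2-fold higher in stromal cells than in the other somatic cells, none lower (all genes: 7.05% and 20.1%), with a median log2 ratio of 1.86. Col1a2, the partner chain of collagen I, was at 2306 CPM against 22.4 in the Sertoli class. Col5a2, a chain of the fibril-nucleating collagen V, was at 135 CPM against 1.66, and Col6a1 at 421 CPM against 34.1. Of 26 matrix proteoglycans and glycoproteins, 19 could be compared and 14 were at least 2-fold higher, none lower, with a median log2 ratio of 1.72. Ogn, the gene of the small proteoglycan osteoglycin, was at 296 CPM against 1.66 in the Sertoli class, and Mfap5, a microfibril component, at 209 CPM against 1.66. Many of these genes are regulated together with the rule genes in fibroblasts, so their direction is close to what the rule selects.

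Against the myoid class these differences were smaller. Of 13 collagen genes that could be compared, 1 was at least 2-fold higher in stromal cells and none lower (all genes: 5.09% and 5.77%), with a median log2 ratio of 0.11, next to 0.04 over all genes. The 1 was Col5a2, at a ratio of 3.59. The share of collagens past 2-fold was thus near that of all genes. Col1a2 had a ratio of 1.46 and Col6a3 of 0.902 (log2 -0.15, -0.48 to 0.19). Of 18 proteoglycan and glycoprotein genes, 2 were at least 2-fold higher and 3 lower. The higher ones were Mfap5, at 209 against 10.9 CPM, and Efemp1, the fibulin-3 gene, at 121 against 8.48 CPM. Eln, which encodes elastin, was at 133 CPM in stromal and 650 CPM in myoid cells, and Mgp, an inhibitor of calcification, at 346 against 1670 CPM. Fbn1, the fibrillin-1 gene of microfibrils, was at 194 against 204 CPM.

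Of the basement membrane genes, 5 of 10 compared were at least 2-fold higher and 1 lower than in the other somatic cells (all genes: 7.05% and 20.1%). Against the myoid class 1 of 8 was higher and 2 lower (all genes: 5.09% and 5.77%). Nid2, a nidogen that links laminin to collagen IV, was at 63.7 CPM against 15.8 in myoid cells, whereas Col4a1 was at 233 CPM against 702. Of 11 genes of matrix degradation, 7 were at least 2-fold higher and 1 lower than in the other somatic cells, and against the myoid class 1 of 10 was higher and 3 lower, with a median log2 ratio of 0.08. Adamts5, a proteoglycan-cleaving protease, was at 701 CPM against 265 in myoid cells. Timp3, which inhibits such proteases, was at 42.7 CPM against 310. The first was thus higher in stromal cells and the second in myoid cells.

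**Figure D2:**
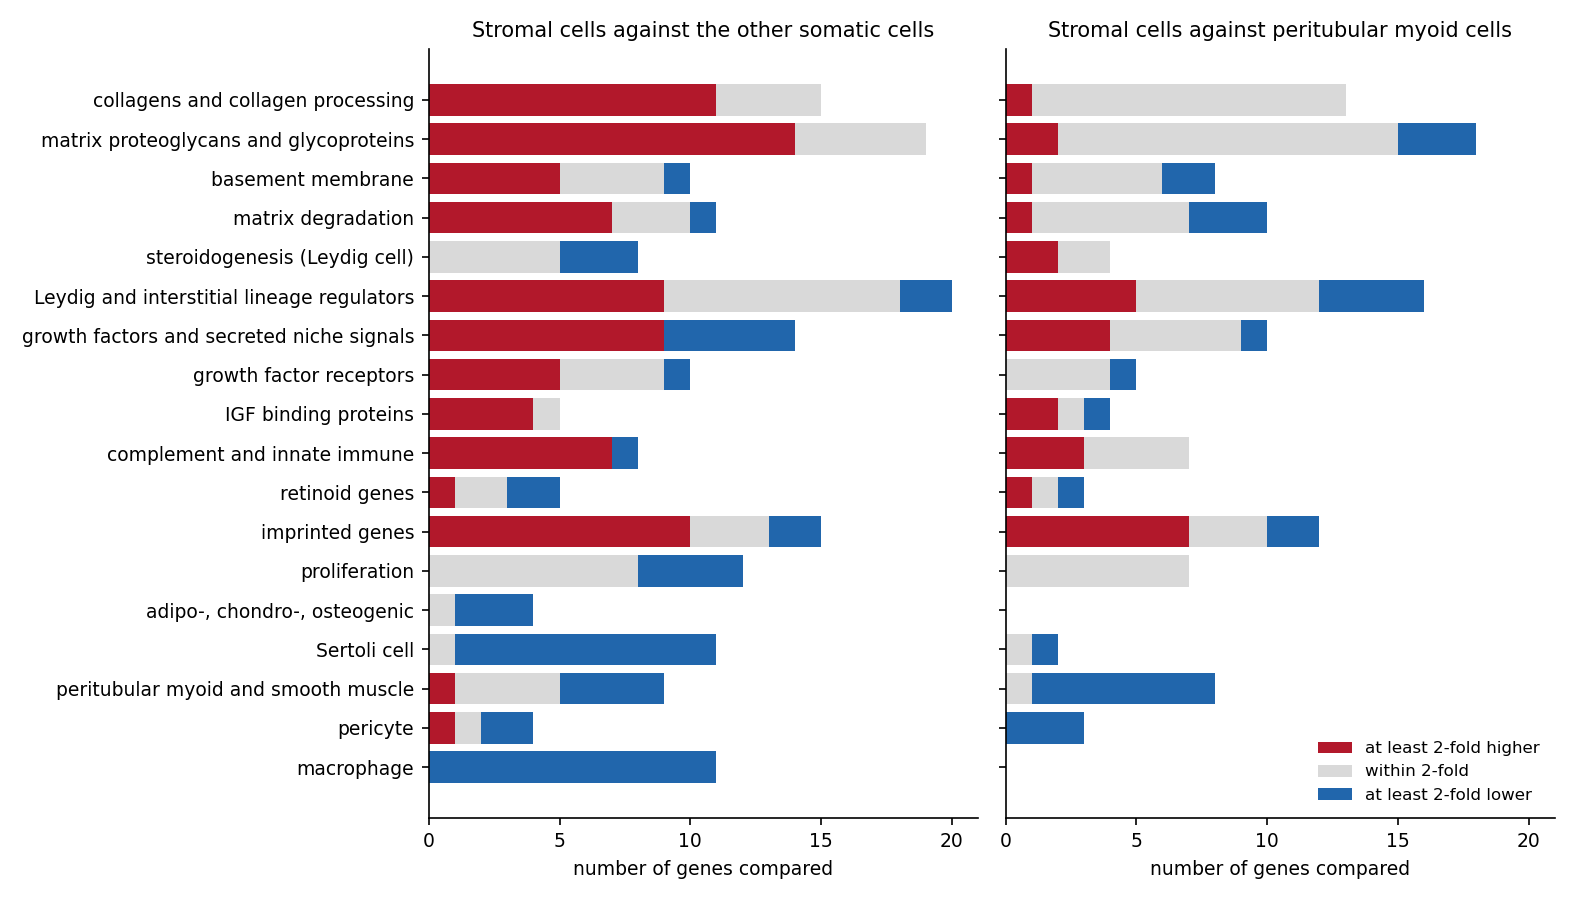
Number of genes of each list that were at least 2-fold higher (red), within 2-fold (grey) or at least 2-fold lower (blue) in stromal cells, against the pooled other somatic cells (left) and against peritubular myoid cells alone (right), for lists with at least 4 genes compared on the left. The red bars of the collagen and glycoprotein lists shrink from 11 and 14 genes on the left to 1 and 2 on the right, and that of the imprinted genes from 10 to 7.

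Genes of secreted signals were read after the matrix genes. Of 14 growth factor and niche genes that could be compared, 9 were at least 2-fold higher and 5 lower than in the other somatic cells (all genes: 7.05% and 20.1%), or 8 and 4 with the other classes counted equally. Against the myoid class, 4 of 10 were higher and 1 lower (all genes: 5.09% and 5.77%). Inhba, which encodes the activin A subunit, had 0 to 18 UMIs per stromal cell with a median of 4. It was at 455 CPM against 10.8 in the Sertoli class, 23.0 in the myoid class and 3.44 in leukocytes. Of the 26 Inhba UMIs of the Sertoli class, 20 lay in 6 cells with steroidogenic transcripts described further on, and without them that class was at 2.59 CPM. The related Inhbb was the reverse, at 9.20 CPM in stromal cells and 162 CPM in the Sertoli class. The activin genes were therefore divided between these classes.

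Cxcl12, the chemokine ligand of CXCR4, a receptor also found on spermatogonial stem cells, was at 680 CPM against 88.5 in the myoid class and 2.08 in the Sertoli class, with 0, 4 and 32 UMIs as the lowest, median and highest value per stromal cell. Igf1, the gene of insulin-like growth factor 1, was at 540 CPM against 159 in myoid cells, but was higher still in leukocytes, at 845 CPM. Ptn, which encodes the heparin-binding factor pleiotrophin, was at 323 CPM against 125, and its relative Mdk at 1054 CPM against 1163 in the myoid class. Cxcl12 and Ptn were thus highest in the stromal class, whereas Mdk was as abundant in myoid cells and Igf1 exceeded the stromal level in leukocytes.

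The best known somatic ligands of spermatogonia, Gdnf and Kitl, were highest in the Sertoli class. Gdnf, the self-renewal factor of spermatogonial stem cells, had 0 UMIs in stromal cells, which allows up to 3 UMIs or 1.97 CPM, against 24.1 in the Sertoli class and 15.8 in the myoid class. Kitl, the ligand of the receptor on differentiating spermatogonia, was at 40.1 CPM against 195 in the Sertoli class. Csf1, a macrophage growth factor, was low in every class and at 17.7 CPM in stromal cells.

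Among receptors, 5 of 10 compared genes were at least 2-fold higher and 1 lower than in the other somatic cells (all genes: 7.05% and 20.1%), or 3 and 2 with the other classes counted equally. Against the myoid class none of 5 was at least 2-fold higher and 1 was lower (all genes: 5.09% and 5.77%). Fgfr1 was at 82.8 CPM against 75.1 in myoid cells. Pdgfrb, typical of mural cells, was at 30.2 CPM against 66.7. Of 5 binding proteins of insulin-like growth factors, 4 were at least 2-fold higher and none lower than in the other somatic cells, and against the myoid class 2 of 4 were higher and 1 lower. The lower one was Igfbp5, at 22.3 against 90.9 CPM. Igfbp6 was at 1687 CPM against 647 in myoid cells and Igfbp4 at 718 CPM against 257. Of 8 complement and innate immune genes, 7 were at least 2-fold higher and 1 lower than in the other somatic cells, and against the myoid class 3 of 7 were higher and none lower. Serping1, the inhibitor of the C1 complex, was at 329 CPM against 167, and C1s1, a protease of that complex, at 88.7 CPM against 35.1. The one lower gene was Ccl2, a monocyte chemokine with 0.657 CPM in stromal cells and 191 CPM in leukocytes. For retinoid genes, 1 of 5 was at least 2-fold higher and 2 lower than in the other somatic cells. That gene, Cyp26b1, whose enzyme degrades retinoic acid, was at 367 CPM against 19.5 in the Sertoli class and 156 in the myoid class, while Aldh1a1, whose enzyme makes retinoic acid, was at 183 CPM against 738 in the Sertoli class. With the other classes counted equally 1 was lower, and Aldh1a1 was not, at a log2 ratio of -0.69 in place of -1.44.

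**Figure D3:**
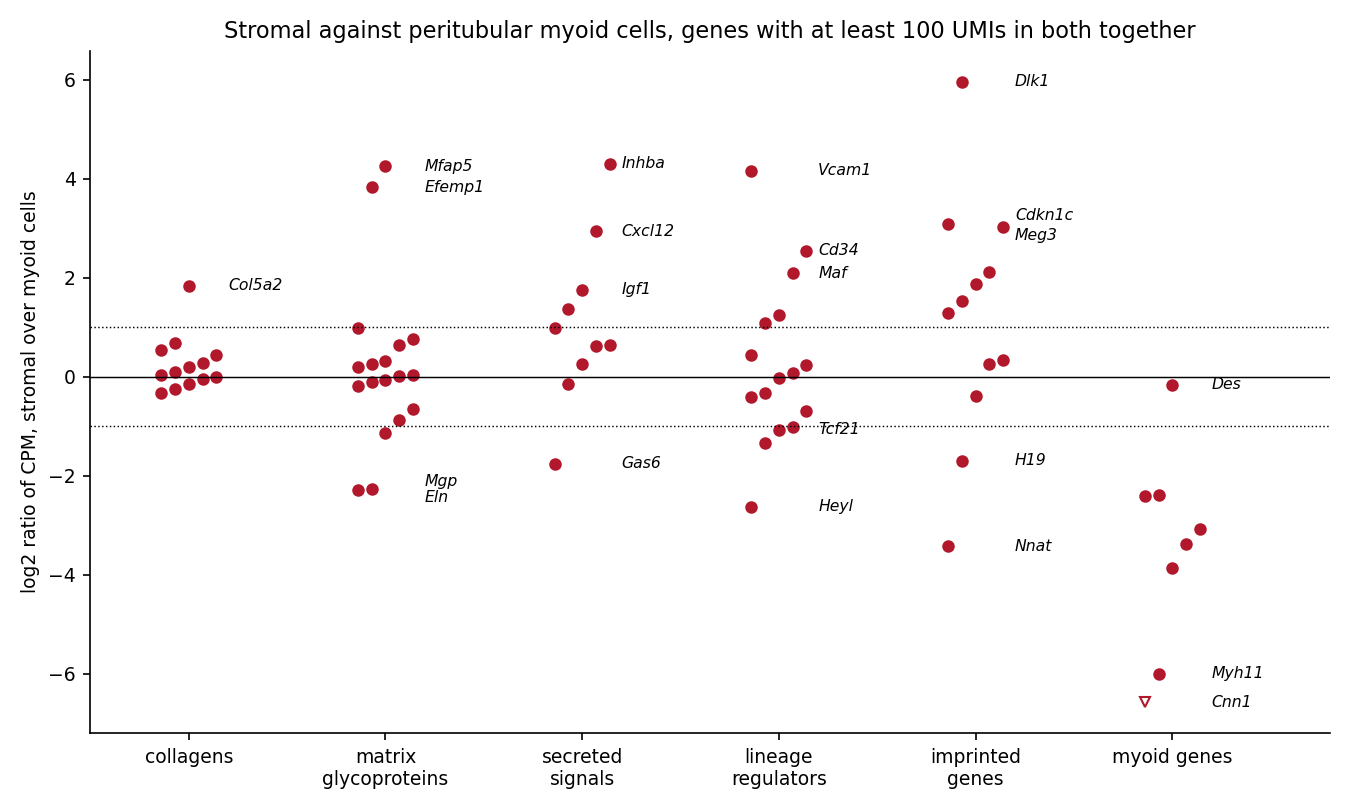
Log2 ratio of CPM in stromal over peritubular myoid cells for the genes of 6 lists with at least 100 UMIs in both classes together. Each point is a gene, the solid line marks equal levels, dotted lines 2-fold, and the open triangle an upper bound for Cnn1, with 0 UMIs in stromal cells; Dlk1 reaches 5.96 and Myh11 -6.00.

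Imprinted genes are expressed from one parental allele, and several act on fetal and early postnatal growth. Of 15 that could be compared, 10 were at least 2-fold higher in stromal cells than in the other somatic cells (all genes: 7.05%) and 2 at least 2-fold lower (20.1%), with a median log2 ratio of 2.41. Against the myoid class 7 of 12 were at least 2-fold higher and 2 lower (all genes: 5.09% and 5.77%), with a median log2 ratio of 1.41. Dlk1 and Meg3 come from one imprinted domain, at chr12:109452823-109463336 and chr12:109541001-109571726 of GRCm38, both on the plus strand. Within the gene span of Meg3 the annotation places 5 other genes, Mir770 among them. Mirg, a host transcript of microRNAs further along the domain, had 30.2 CPM in stromal cells and 2.42 CPM in myoid cells. All 3 of these transcripts of the domain were thus highest in the stromal class, with Dlk1 normally active on the paternal and Meg3 on the maternal copy.

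Cdkn1c, the growth-restraining cell cycle inhibitor p57, was at 350 CPM against 41.2 in the myoid class and 4.98 in the Sertoli class. Plagl1, a zinc finger regulator, was at 335 CPM against 90.9, and Peg3 at 484 CPM against 198. Mest, the gene of a hydrolase-like protein, was at 180 CPM against 41.2. Not all members followed. H19, another noncoding growth regulator, was at 365 CPM in stromal and 1183 CPM in myoid cells, and its neighbour Igf2 at 106 against 88.5 CPM. Nnat was at 15.8 CPM against 170, and Peg10 at 1.31 CPM against 46.1 in the Sertoli class. Imprinted transcripts were therefore not all higher in stromal cells, and H19 and Nnat were highest in the myoid class.

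The next question was how far the stromal cells carried genes of the Leydig lineage. Of 20 regulators of Leydig and interstitial cells that could be compared, 9 were at least 2-fold higher than in the other somatic cells and 2 lower (all genes: 7.05% and 20.1%), with a median log2 ratio of 0.91. Against the myoid class 5 of 16 were higher and 4 lower (all genes: 5.09% and 5.77%), with a median of 0.02. Nr2f2, the nuclear receptor COUP-TFII of interstitial progenitors, was at 334 CPM against 7.47 in the Sertoli class and 421 in the myoid class. Tcf21, a bHLH factor of interstitial mesenchyme, was at 169 CPM against 354 in the myoid class. Both progenitor factors were thus higher in the myoid class, by 1.26-fold for Nr2f2 and 2.09-fold for Tcf21.

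Other regulators were higher in stromal cells. Lhx9, a LIM homeobox factor of the early gonad, was at 103 CPM against 48.5 in the myoid class. Vcam1, a cell adhesion gene of interstitial progenitors, was at 131 CPM against 7.27 in the myoid class and 16.2 in the Sertoli class. It was found in 50.9% of stromal cells. Maf was at 181 CPM against 42.4 in myoid cells but at 910 CPM in leukocytes. For the Hedgehog pathway, through which Sertoli cells signal to interstitial cells, the receptor and target Ptch1 was at 182 CPM against 242 in the myoid and 40.7 in the Sertoli class. Gli1, the transcription factor read as its target, was at 30.9 against 31.5 CPM, and Hhip at 42.7 against 43.6 CPM, both with 1.25 CPM in the Sertoli class. Each of these 3 was thus lower in the Sertoli class than in stromal cells.

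Nr5a1, which encodes the steroidogenic factor SF1, was at 44.7 CPM in stromal cells (34.7 to 56.6), 25.4 in myoid cells and 93.8 in the Sertoli class, and 29.7% of stromal cells had a UMI of it. Gata4 was at 36.1 CPM against 31.5 and 142. Wt1, a Sertoli cell factor, was at 7.23 CPM against 327 in the Sertoli class. Thy1, the gene of the protein used for selection, was at 9.86 CPM (5.52 to 16.3) with a UMI in 6.86% of stromal cells, against 3.67% of the deeper germ cells, and in 4.32% and 1.43% after thinning. How far THY1 selection and the unselected cells each contributed stromal cells cannot be told apart.

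Most steroidogenic UMIs of the class came from few cells. Star, Cyp11a1, Hsd3b1, Cyp17a1 and Insl3, the cholesterol carrier, the side-chain cleavage enzyme, 2 later enzymes of androgen synthesis and the Leydig cell hormone INSL3, summed to 92 UMIs in all stromal cells, or 60.5 CPM (48.7 to 74.1). Of these UMIs, 89.1% came from 4 cells, with 41, 16, 16 and 9 UMIs. The other 171 stromal cells together held 6.78 CPM, close to the 6.09 CPM of germ cells, in which no cell had more than 2 such UMIs. By the threshold of 10 UMIs, 3 of 175 stromal cells were steroidogenic (1.71%, 0.355 to 4.93%). The count rested on the assignment rule: none was left when the largest sum had to be at least 3 times the next (7.08 CPM), or without cells in which a second sum reached 5 (5.12 CPM). It also rested on depth and threshold, with 1 cell left at 5000 UMIs per cell and 1 from 20 steroidogenic UMIs.

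More of these transcripts lay in cells that the rule gave to the Sertoli class. Of the 263 cells of that class, 6 had at least 5 UMIs, and they held 377, 127, 45, 26, 17 and 14. Without them the Sertoli class was at 13.8 CPM instead of 265. The myoid class had 8.48 CPM and at most 1 UMI in a cell, and leukocytes had 0. All 10 kept cells, 4 stromal and 6 of the Sertoli class, had at least 5 UMIs of Defb19, which is one of the genes of the Sertoli sum. None had a UMI of the Sertoli factor Sox9, and they held 1 Amh UMI and 1 Cst12 UMI in all. The 6 cells thus had their Sertoli sums mostly through Clu, Defb19 and Inha with hardly any of the other Sertoli transcripts, and cells with steroidogenic transcripts fell on both sides of the rule.

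The 4 stromal cells had stromal sums of 23, 28, 17 and 21 UMIs and Sertoli sums of 13, 10, 7 and 17, in the order of the steroidogenic UMIs above. Cyp17a1 was present in each, with 21, 7, 11 and 3 UMIs, and Cyp11a1 in each with 2, 6, 1 and 3. Hsd3b1 had 14 and 3 UMIs in the first and the last and none in the others, and the single Star UMI lay in the first cell. Meg3 had 23, 4, 1 and 12 UMIs and Dlk1 12, 0, 2 and 0, against class medians of 55 and 41. The 4 cells thus lay below the class median for both markers. All 4 had S100b UMIs, while 1 of the 6 cells of the Sertoli class did. Hsd17b3, whose enzyme makes testosterone, had no UMI in any of the 10 cells and stood at 213 CPM in the Sertoli class. Hsd3b6, an isoform of adult Leydig cells, had 0 UMIs in all stromal cells, which allows up to 1.97 CPM.

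**Figure D4:**
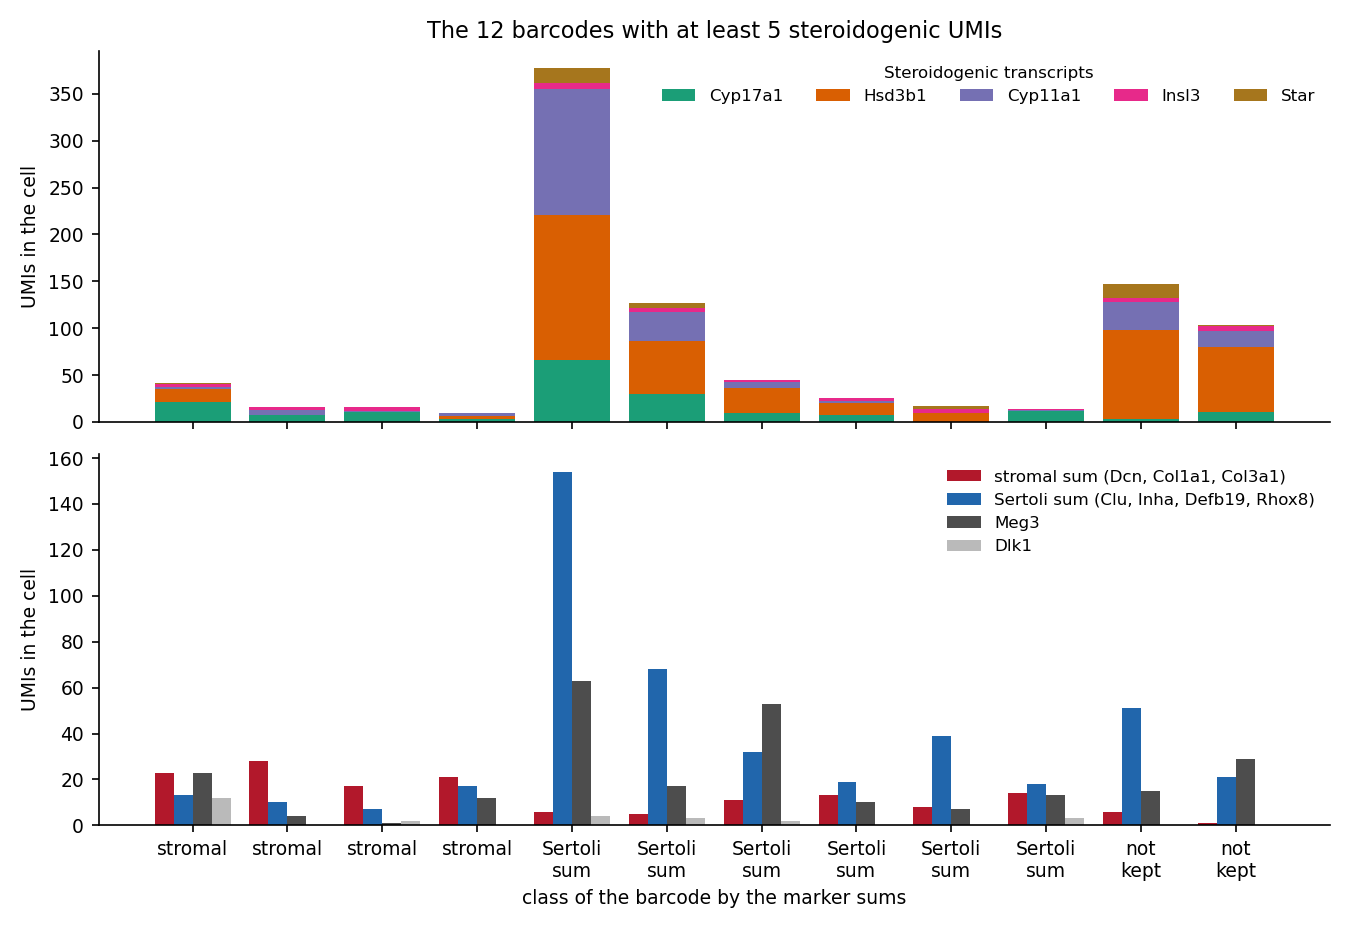
UMIs in the 12 barcodes with at least 5 steroidogenic UMIs, by class: steroidogenic transcripts stacked by gene (top) and the stromal sum, the Sertoli sum, Meg3 and Dlk1 (bottom). The 4 stromal cells hold 41 steroidogenic UMIs or fewer and the highest barcode of the Sertoli class holds 377, with a Sertoli sum far above its stromal sum.

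Of the whole steroidogenesis list, 8 of 18 genes could be compared, with none at least 2-fold higher than in the other somatic cells (all genes: 7.05%) and 3 lower (20.1%), Cyp11a1, Hsd3b1 and Hsd17b3. For the first pair this direction rests on the 6 cells of the Sertoli class, which held 176 Cyp11a1 and 259 Hsd3b1 UMIs, while the rest of that class held 3 and 7. Fdx1 and Fdxr, which pass electrons to mitochondrial P450 enzymes, were more evenly spread. Fdx1 was at 132 CPM in stromal cells, 127 in the Sertoli class (87.0 without the 6 cells) and 61.8 in the myoid class. Scarb1, which takes up cholesterol from lipoproteins, was at 52.6 CPM against 120 in the Sertoli class and 38.8 in the myoid class. Lhcgr, the receptor for luteinizing hormone, was at 8.54 CPM, with a UMI in 5.71% of stromal cells.

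Markers of other cell types were then read in the stromal cells. Of 11 Sertoli genes compared, 10 were at least 2-fold lower and none higher than in the other somatic cells (all genes: 20.1% and 7.05%), and the list summed to 602 CPM in stromal cells against 9757 CPM in the Sertoli class. Its most abundant gene in stromal cells was Ctsl, a cathepsin with 601 UMIs, while Amh was at 3.94 CPM against 461. All 11 macrophage genes were at least 2-fold lower, with 38.8 CPM for the list against 21967 in leukocytes. Of 8 myoid genes compared with the myoid class, 7 were at least 2-fold lower and none higher (all genes: 5.77% and 5.09%). Myh11, smooth muscle myosin, was at 7.23 CPM against 464. Cnn1 and Actg2 had 0 UMIs in stromal cells, which made Cnn1 at least 95.3-fold higher in myoid cells (taking 3 UMIs over all stromal cells). Des was the exception, at 58.5 against 65.4 CPM. Tpm2, a tropomyosin, was at 112 against 948 CPM, so some contractile transcripts were present at a lower level and others were near 0.

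Cdh5, which encodes the vascular cadherin of endothelium, was among the 25 leading genes. It was at 141 CPM against 20.6 in the myoid class and 2.49 in the Sertoli class, with a UMI in 64.0% of stromal cells (53.1% after thinning) and in 4.28% of germ cells (1.07%). The 10 unassigned barcodes, which entered no comparison, held Cdh5 at 265 CPM (18 UMIs). Cd34 was at 368 CPM (25 UMIs) in them and at 382 CPM in stromal cells. Of the 13 genes of the endothelial list only Cdh5 and Ramp2 could be compared, and both were at least 2-fold higher than in the other somatic cells (all genes: 7.05%) and than in the myoid class (5.09%). Of the 112 stromal cells with a Cdh5 UMI, 94 had none of 8 others of the list (Pecam1, Kdr, Tie1, Esam, Emcn, Cldn5, Flt1 and Egfl7) and no cell had 3 or more of their UMIs. Flt1, Tie1 and Cldn5 had 0 UMIs in the whole class, and Pecam1 was at 5.26 CPM. Ramp2, a receptor modifier and the most abundant gene of the list in stromal cells, was at 245 CPM against 98.2 in myoid cells. Most stromal cells with Cdh5 thus held no UMI of these 8 markers. The germ cell list summed to 34.8 CPM in stromal cells, against 1149 CPM in germ cells.

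The pericyte list of 10 genes summed to 148 CPM in stromal cells against 690 CPM in the myoid class, and Pdgfrb was its most abundant gene in stromal cells with 46 UMIs. A single stromal cell held 36 UMIs of 4 pericyte genes, including all 12 Rgs5 UMIs of the class, while 7 cells of the myoid class had at least 5 such UMIs. Red cell transcripts were at 90.7 CPM in stromal and 92.1 CPM in myoid cells, a like level in both. Of 4 adipogenic, chondrogenic and osteogenic genes that could be compared, none was at least 2-fold higher and 3 were lower than in the other somatic cells (all genes: 7.05% and 20.1%), or 2 lower as a mean over cells or without mitochondrial and ribosomal UMIs. Adipoq, Acan, Col2a1, Comp and Sp7 had 0 UMIs in stromal cells.

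Proliferation transcripts were comparatively low. Of 12 genes compared, 4 were at least 2-fold lower and none higher than in the other somatic cells (all genes: 20.1% and 7.05%), or 6 lower as a mean over cells and 5 with the other classes counted equally, with a median log2 ratio of -0.81 next to -0.31 over all genes, and against the myoid class none of 7 differed by 2-fold in either direction. After thinning to 5000 UMIs, 14 of 162 stromal cells had at least 5 UMIs of the 13 proliferation genes (8.64%, 4.81 to 14.1%). The share was 13.0% in the myoid class (7.11 to 21.2%), 20.5% in the Sertoli class (15.6 to 26.1%) and 72.9% in germ cells. The stromal interval overlapped that of the myoid class and lay below that of the Sertoli class. Without thinning, 22 stromal cells (12.6%) reached 5 UMIs.

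Finally, the stromal cells were compared among themselves. Of 1934 genes with at least 100 UMIs in them, the median variance of Pearson residuals was 1.14, where 1 is close to sampling noise, and 228 exceeded 2. Dlk1 (19.1) and Meg3 (16.1) varied most, so markers of the class also differed within it. They were followed by Malat1, Sparc, H2afz and Stmn1, the last 2 known from dividing cells. Clec3b, Tppp3 and Fos were also among the 15 most variable genes, each at 0 UMIs in 81, 81 and 99 stromal cells and with 40, 39 and 23 UMIs at most.

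Clustering of the 175 cells gave 2 groups, of 104 and 71 cells, with median depths of 7703 and 9268 UMIs. The groups are named by number, since their leading genes define them. Cluster 1 was led by the immediate early genes Fos, Junb, Fosb, Egr1 and Ier2, with Hes1 and Cyp26b1, and held the 4 cells with at least 5 steroidogenic UMIs and the pericyte-marked cell. Fos was at 432 CPM in it and 50.0 CPM in cluster 2. Defb19, a gene of the Sertoli sum, was also among the leading genes of cluster 1, at 324 CPM against 138. Immediate early genes can be induced while tissue is dissociated, and the part of that in the grouping was not tested. Cluster 2 was led by Cks2, Tppp3, Crip1, Clec3b, Cd9 and Stmn1 and held 20 of the 22 cells with proliferation transcripts. Tppp3 was at 858 CPM in it against 106, and Clec3b at 739 CPM against 114. Dcn was at 6692 against 1906 CPM and Dlk1 at 8200 against 3902 CPM. The clusters were built from variable genes of the same cells, so these differences describe the grouping and test nothing. The median stromal sum was 96 UMIs in cluster 2 and 32 in cluster 1.

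Some genes were at like levels in both clusters. Pdgfra was at 361 CPM in cluster 1 and 371 in cluster 2, Nr2f2 at 344 and 321, and Cdh5 at 139 and 144. Vcam1 was at 160 and 94.2 CPM and Ptch1 at 217 and 138, both higher in cluster 1. The same pattern was seen when cells were divided by Clec3b alone, a gene chosen after its values were seen. In the 62 cells with at least 2 Clec3b UMIs, Dpt was at 268 CPM against 61.3 in the other 113, Mfap5 at 396 against 95.1 and Tppp3 at 876 against 178, whereas Cdh5 was at 135 against 145. Clec3b, Dpt, Mfap5 and Tppp3 thus went together in a portion of the cells, and Cdh5 did not follow them. At a clustering resolution of 1.2 in place of 0.5 there were 5 clusters, so the number of groups is a matter of setting.

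**Figure D5:**
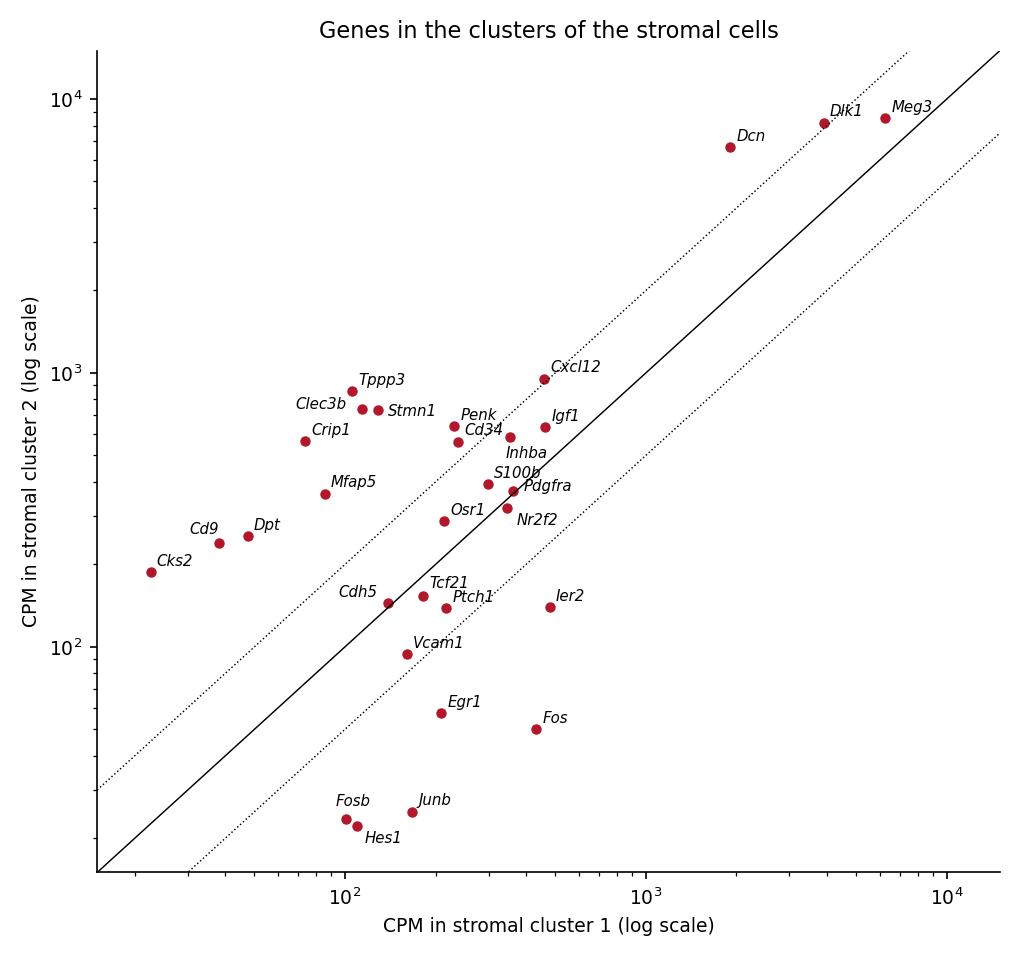
Levels (CPM, log scales) of selected genes in the stromal clusters of 104 cells (cluster 1, horizontal axis) and 71 cells (cluster 2, vertical axis). The solid line marks equal levels and dotted lines 2-fold; Fos, Junb and Hes1 lie below the lines, Tppp3, Clec3b and Dpt above them, and Pdgfra, Nr2f2 and Cdh5 on the diagonal.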

How the data were processed

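The authors aligned the reads with Cell Ranger 2.1.0 to mm10 (GRCm38) and deposited UMI counts per gene and barcode, without normalization. Members, gene lists and alternatives were chosen with earlier results of these data known. Class levels were summed UMIs per 1000000 (exact Poisson 95% intervals). Intervals of ratios were exact, conditional on the UMIs of both sides, those of shares exact binomial, and a class at 0 was set at 3 UMIs. A gene was compared with at least 100 UMIs in both sides together, leaving out the 13 genes of the marker sums. Doublets were not removed: scrublet (scanpy 1.11.5) marked 4 of 970 barcodes, 0 of them stromal, too few to show that it worked. Named genes came from 26 lists and from the 25 largest and 15 smallest ratios, the 10 largest over the highest other class (UMI in at least 25% of cells) and the 15 most variable. Clusters used Seurat 5.3.0 in R 4.3.3. Positions came from GENCODE for 27645 of 27998 genes. On class sums simulated as Poisson counts, with no variation between cells, 93% of intervals held a true 4-fold ratio. Of genes changed 4-fold 100% were called, of those changed 1.5-fold 6%, and of 6001 unchanged genes 5. Counts were summed in Python 3.11.15 with scipy 1.17.1.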

Additional observations from a re-analysis of the deposited data

Results flagged for a closer look

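Of the 46 barcodes that were not kept, 2 had at least 5 steroidogenic UMIs, with 147 and 103, more than any stromal cell. They came up because they lie in data that no comparison used. Mitochondrial UMIs were 10.9% and 11.8% of these barcodes, just above the limit of 10%, and their Sertoli sums (51 and 21 UMIs) exceeded their stromal sums (6 and 1).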

How the results depend on the processing

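Of 132 values recomputed under 23 alternatives, 101 moved by less than their interval (or 1.5 times for counts), 31 moved and 0 reversed. Only the log2 ratios of Meg3, Dlk1 and Pdgfra could reverse, since the other values were counts, shares or levels without a sign. With mitochondrial UMIs under 5%, stromal cells were 46.8% of the somatic cells, 251 genes were higher and 457 lower among fewer genes compared, and the log2 ratios were 4.03 (Meg3), 6.54 (Dlk1) and 1.77 (Pdgfra). With the largest sum at least 3 times the next, 0 cells were steroidogenic (7.08 CPM), with 5.37 for Meg3 and 7.39 for Dlk1. Without cells of any class with a second sum of 5 there were 101 stromal cells (24.5%), 0 of them steroidogenic (5.12 CPM), with 8.27 (Meg3), 7.98 (Dlk1) and 5.49 (Pdgfra). Steroidogenic transcripts were at 47.2 CPM as a mean over cells and 93.7 without mitochondrial and ribosomal UMIs, where Meg3 was at 5.01. With the 3 other classes counted equally, Meg3 was at 4.47 and Pdgfra at 2.28. The last pair of scalings moved the median log2 ratio of all genes by 0.13 and 0.11, and among the genes named, H19, Maf, Nr5a1, Fdxr and Col4a1 changed sign against the pool with equal classes, as Cyp17a1 did there and as a mean over cells, and Eln, Mgp and Igfbp5 without mitochondrial and ribosomal UMIs. Under these scalings no gene list's count against the pool moved by more than 2 genes in either direction. From 30 UMIs, 856 genes were higher and 2336 lower. At 4-fold the counts were 167 and 512, and with UMIs split between assignment and levels 276 and 740. The split left fewer UMIs per gene for the same minimum of 100, so fewer genes could be compared, and its marker sum limit was 3. Steroidogenic cells were 1 from 20 UMIs and 1 after thinning to 5000. There were 5 clusters at a resolution of 1.2. No cause was tested. No paired analysis was possible because there was 1 library. Depth limits a gene at 0 in stromal cells to 1.97 CPM.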

Other observations

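The 10 unassigned barcodes, which entered no comparison, held 67910 UMIs in all. Of these, 10166 were from 6 red blood cell genes, 148 from the endothelial list (against 638 in all 175 stromal cells, mostly Ramp2 and Cdh5) and 87 from the lymphocyte list. Meg3, Dlk1 and Pdgfra together had 14 UMIs in them, or 206 CPM, against 13458 CPM in stromal cells.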
